A study of Caenorhabditis elegans with 2 samples.

Results

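Of the 1290 peaks in the optimal set of a ZIP-4 chromatin immunoprecipitation and sequencing (ChIP-seq) experiment in Caenorhabditis elegans, 305 (23.6%) had a summit that lay in the promoters of at least 2 protein-coding genes on an autosome. A promoter was taken to reach from 1000 bp before each annotated transcript start to 200 bp after it, and a peak was placed by its deposited summit. The peaks were therefore chosen by their position and by the authors' threshold on binding strength, and neither their place nor their strength is a test result here. They made up 29.1% of the 1049 autosomal peaks and 40.2% of the 759 autosomal peaks in promoters. The other 454 promoter peaks lay in the promoter of 1 gene, 290 autosomal peaks lay outside protein-coding promoters, and 6 further peaks of the shared kind lay on X and were left out. In all, 282 of the 305 summits lay in the promoters of 2 genes and 23 in those of 3.

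The worms were starved first-stage (L1) larvae of mixed sex, 6 hours of age, of strain OP590, which carries the unc-119(tm4063) mutation and the transgene wgIs590. The transgene holds zip-4 fused to TY1, EGFP and 3xFLAG tags, together with unc-119(+). According to the sample description the precipitating antibody was to GFP, although the field for the antibody gives zip-4. The single group held 2 biological replicates, with no fed, untagged or mutant group, so no conditions could be compared. Whole larvae were used, so the cell types in which a site was bound are not known, and the tagged protein came from a transgene, in a strain for which the labels name no zip-4 mutation. The depth of sequencing is not known from the sources. Intervals below are 95% Clopper-Pearson intervals that cover counting of peaks or genes only, and tests over peaks describe these 2 libraries, since peaks are not biological replicates.

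ZIP-4 is a basic leucine zipper (bZIP) protein. Factors of this family bind DNA as dimers at short, often palindromic words, and the main word examined here is of the type bound by the C/EBP branch of the family. In a compact genome such as that of C. elegans, neighbouring genes often face away from each other and start within a short intergenic space. A factor bound in such a divergent promoter sits upstream of both genes, and a peak there does not tell which of them, if either, it acts on. Genes on the same strand can also be close enough for the promoter of the downstream gene to reach that of the upstream one, and in C. elegans closely spaced genes of this kind can be transcribed together as operons.

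The sequences of a few of these promoters, picked by hand, are given here, and they do not show which bases were bound. Of them, 2 are short enough to be given as the whole space between both starts, on the plus strand of ce11, with capitals for matches on either strand to the C/EBP-type word TTACNNAA or TTGCNNAA. The space of C49G7.10 and irg-2 holds the second strongest of the 305 peaks, with its summit at base 39 of the sequence. The space of cux-7 and C07H6.2 holds a strong peak with its summit at base 16 and a single match at the far end, outside the 50 bp on either side of the summit.
C49G7.10 and irg-2, chrV:4042022-4042180: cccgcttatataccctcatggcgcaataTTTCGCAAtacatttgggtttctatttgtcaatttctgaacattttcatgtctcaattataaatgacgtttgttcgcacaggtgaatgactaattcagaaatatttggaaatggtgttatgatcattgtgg
cux-7 and C07H6.2, chrIII:7520846-7521008: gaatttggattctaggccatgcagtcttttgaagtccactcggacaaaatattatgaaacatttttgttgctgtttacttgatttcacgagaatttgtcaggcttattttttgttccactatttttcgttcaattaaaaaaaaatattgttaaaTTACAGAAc

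In longer promoters, the 101 bases centred on the summit are given. In the first 6, capitals mark the same C/EBP-type word, which in each took the form TTGCGAAA or its reverse complement TTTCGCAA. F13A7.11 and F13A7.12 has it 2 times. The windows are not typical of the set in this respect, since TTGCGAAA was in 44 of the 305 peaks (14.4%).
icd-1 and vps-32.1, chrII:6589090-6589190: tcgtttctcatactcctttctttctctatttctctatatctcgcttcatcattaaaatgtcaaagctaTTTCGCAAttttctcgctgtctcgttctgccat
F13A7.11 and F13A7.12, chrV:16395320-16395420: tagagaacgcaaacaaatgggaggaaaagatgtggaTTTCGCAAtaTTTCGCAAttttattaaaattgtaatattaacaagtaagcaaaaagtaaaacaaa
hat-1 and M03C11.3, chrIII:10407403-10407503: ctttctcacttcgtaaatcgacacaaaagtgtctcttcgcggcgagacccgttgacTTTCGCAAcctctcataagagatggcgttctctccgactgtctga
Y38H6C.9 and fbxa-150, chrV:20522358-20522458: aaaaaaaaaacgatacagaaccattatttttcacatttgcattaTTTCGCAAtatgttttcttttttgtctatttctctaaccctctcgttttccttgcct
smc-6 and pcs-1, chrII:11578447-11578547: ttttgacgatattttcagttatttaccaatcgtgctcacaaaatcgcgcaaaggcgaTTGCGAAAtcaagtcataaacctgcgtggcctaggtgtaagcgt
dagl-2 and ppm-1.G, chrIII:783351-783451: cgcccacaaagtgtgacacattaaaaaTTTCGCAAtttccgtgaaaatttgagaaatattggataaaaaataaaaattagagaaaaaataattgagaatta

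The next 4 windows come from strong or typical peaks of ribosomal protein and chaperonin promoters, which have no match to the word and therefore no capitals.
rpl-15 and K11H12.8, chrIV:654875-654975: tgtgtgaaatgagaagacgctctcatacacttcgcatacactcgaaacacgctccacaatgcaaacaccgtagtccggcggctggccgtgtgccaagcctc
Y17G9B.5 and rpl-20, chrIV:4750026-4750126: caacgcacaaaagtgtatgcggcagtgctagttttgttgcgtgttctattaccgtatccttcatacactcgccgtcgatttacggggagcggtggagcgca
Y55F3AR.2 and cct-8, chrIV:1094305-1094405: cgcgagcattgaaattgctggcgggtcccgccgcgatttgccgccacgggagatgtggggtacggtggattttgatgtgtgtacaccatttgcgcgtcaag
rps-14 and rpl-36, chrIII:7179789-7179889: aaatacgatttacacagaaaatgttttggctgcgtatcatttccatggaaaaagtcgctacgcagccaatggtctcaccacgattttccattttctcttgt

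The peak between icd-1, which encodes the beta subunit of the nascent polypeptide-associated complex, and vps-32.1, an ESCRT-III subunit of membrane remodelling, had a signal value (the strength the authors deposited, on a scale that is not stated) of 1141 (pooled), 762.5 (replicate 1) and 377.8 (replicate 2). It covered chrII:6588934-6589300 in intergenic sequence, with the summit 485 bp upstream of icd-1 and 568 bp upstream of vps-32.1, and ranked 13 among all pooled regions. The peak of C49G7.10 and the infection response gene irg-2, at chrV:4041866-4042282, had values of 1126, 744.9 and 373.2 in the same order. Here both starts were near, 39 and 121 bp from the summit. A weaker second peak of this pair, with a pooled value of 261.1, had its summit at position 4042261, beyond the irg-2 start.

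The peak of F13A7.11 and F13A7.12 at chrV:16395206-16395520 had values of 1082, 710.6 and 374.5 in the same order. That of pri-2, which encodes the large subunit of DNA primase, and W02D9.2 at chrI:12532119-12532494 had 1038, 723.8 and 320.2. A peak at chrIV:15646529-15646952, between genes that have sequence names only, had 1035, 734.3 and 309.1. Replicate 1 gave the higher value at each of these sites. This held for 289 of the 297 shared-promoter peaks that had a summit within 100 bp in both replicates, and the median ratio of replicate 1 to replicate 2 was 1.88.

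The peak upstream of rpl-20, a large-subunit ribosomal protein gene, and Y17G9B.5 at chrIV:4749944-4750219 had 917.2 (pooled), 597.2 (replicate 1) and 321.4 (replicate 2). That of rpl-15 and K11H12.8 at chrIV:654812-655052 had 706.7, 415.2 and 293.2, and that of cct-8, a CCT chaperonin subunit, and Y55F3AR.2 at chrIV:1094248-1094484 had 705.4, 456.0 and 254.2. In each, both starts lay between 164 and 465 bp from the summit. By contrast, the summit of C06B3.7 and C06B3.6 (747.7, 509.0 and 239.7) lay 12 bp downstream of the C06B3.7 start, in its 5′ UTR, and 731 bp from C06B3.6.

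Other strong divergent peaks lay beside tasp-1, which encodes a threonine protease, and K01G5.10 (715.4, 452.8 and 264.4), and beside cux-7 and C07H6.2 (668.3, 443.6 and 229.2), where the DNA ligase gene lig-4 also had a start within reach. The peak between cap-2, for the beta subunit of actin capping protein, and gmps-1, for GMP synthetase, had values of 605.6, 398.5 and 208.6 and stood nearly midway, 223 and 253 bp from the starts. The peak of hsp-60, the mitochondrial chaperonin, and Y22D7AL.10 had 592.3, 382.6 and 210.8, and that of tag-340 and nhl-2 had 583.3, 362.2 and 218.8. Of the 16 strongest peaks, 15 were divergent, 7 held TTGCGAAA within 50 bp of the summit, and the lowest ranks were 58 in replicate 1 and 102 in replicate 2. The last of them, between cel-1, the mRNA capping enzyme, and the nucleoporin gene npp-14, was also the one on which the replicates differed most in rank, at 48 and 102.

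**Figure D1:**
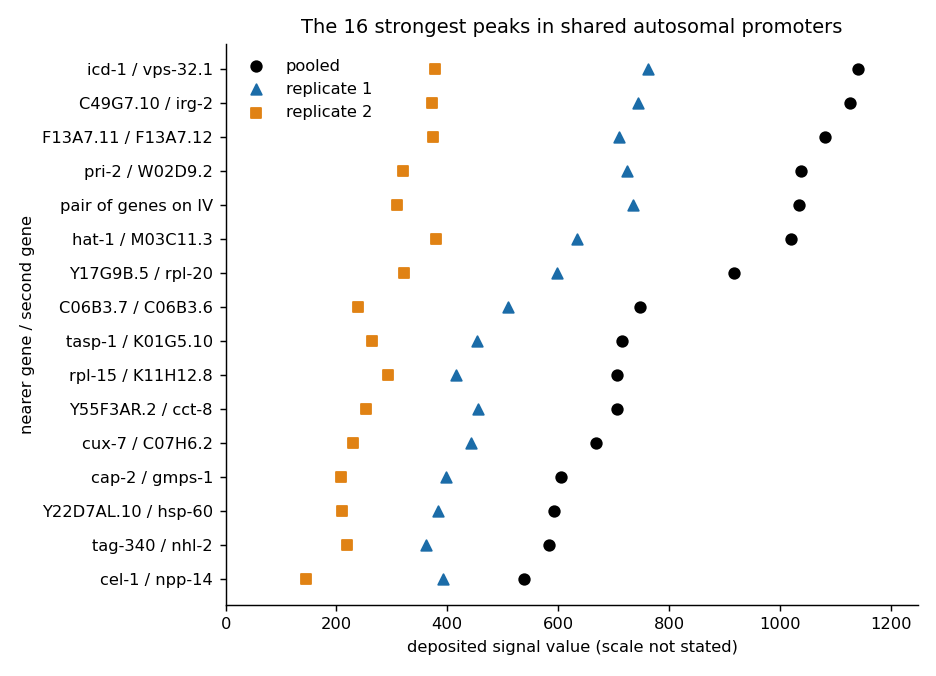
The 16 strongest peaks in shared autosomal promoters, each on a row labelled with the nearer and the second gene; the horizontal axis is the deposited signal value in the pooled list (circles), replicate 1 (triangles) and replicate 2 (squares). Replicate 1 lies above replicate 2 in all 16, and the first 6 have pooled values over 1000, from 1141 to 1020.

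Of the 305 peaks, 268 (87.9%, interval 83.7 to 91.3%) lay at pairs of genes that point away from each other, 16 (5.25%) at pairs on the same strand and 21 (6.89%) at pairs whose bodies overlap. The class is that of the 2 genes with the nearest starts. The pooled list also holds 22701 weaker autosomal regions that touch no optimal peak, and 797 of these (3.51%) had a summit in a shared promoter, of which 81.1% were divergent, 7.78% same-strand and 11.2% overlapping. The definitions leave no autosomal sequence to convergent pairs, so no peak could fall there. By chromosome, shared-promoter peaks made up 62 of 212 peaks on I, 46 of 205 on II, 80 of 238 on III, 50 of 181 on IV and 67 of 213 on V, a range of 22.4 to 33.6%.

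The strongest same-strand peak was that of sec-61.G, the gamma subunit of the Sec61 translocon, and F32D8.13, with values of 467.9 (pooled), 287.9 (replicate 1) and 180.7 (replicate 2). It was followed by ddp-1, a mitochondrial import chaperone gene of the TIM family, with ttc-7 (417.0, 271.6 and 142.5). The peak of rpb-11, an RNA polymerase II subunit, and W01G7.4 had 292.2, 192.4 and 99.95. In all 3 the nearer start was 117 to 239 bp away and the second one 692 to 839 bp away. That spacing was general in the class: the median second start lay 815 bp from the summit, and no second start was nearer than 671 bp. The rule sets part of this spacing, since gene bodies in this class do not overlap and both starts must be within reach. The next were rps-28 with Y41D4B.4 (252.3, 172.4 and 82.83), the prefoldin gene pfd-6 with the RNA interference gene rde-2 (171.8, 110.7 and 58.74), and C33A12.3 with C33A12.4 (164.9, 105.4 and 62.51), whose summit fell in an intron and within an annotated snoRNA gene.

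Among overlapping pairs, the peak of hat-1, a histone acetyltransferase, and M03C11.3 had values of 1020 (pooled), 634.4 (replicate 1) and 379.3 (replicate 2). Its summit lay in an intron, 205 bp upstream of hat-1, and the 101-base window printed above has TTTCGCAA. The peak of C47E8.4 and hsp-90, the cytosolic heat shock protein, had 495.0, 318.4 and 170.3. The peak of egl-30, the G-protein alpha subunit of the Gq class, and C53H9.4 had 484.9, 274.9 and 205.5. Of the 21 overlapping pairs, 10 were on opposite strands and 11 on the same strand, and 10 summits were intronic, against 10 of the 268 summits at divergent pairs. The remaining named ones were pqn-51 with K11D12.14 (348.5, 236.9 and 113.8), the kinase gene cdk-5 with kel-3 (296.3, 186.2 and 110.8), and Y39A1A.22 with Y39A1A.21 and the mitochondrial ribosomal gene mrpl-12 (214.6, 138.9 and 75.14).

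Shared promoters cover little of the genome. Positions in the promoters of at least 2 genes add up to 2.542 Mb of the autosomes and held 120 peaks per Mb, those in the promoter of 1 gene to 19.90 Mb with 22.8 peaks per Mb, and the rest to 60.11 Mb with 4.82. The weaker regions of the pooled list were spread far more evenly, at 313, 290 and 268 per Mb. Peak density was 130 per Mb in divergent, 80.2 in same-strand and 73.0 in overlapping shared promoters. Of 3439 separate shared stretches, 294 (8.55%) held a peak.

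A position in a shared promoter is on average nearer to a start than one in a single promoter, so densities were also read at equal distances. From 200 to 101 bp upstream of the nearest start there were 278 peaks per Mb in shared and 55.9 in single promoters. From 1000 to 501 bp upstream the values were 45.1 and 12.6, and from 1 to 200 bp downstream 23.0 and 8.75. Shared promoters thus had the higher density in each of the 6 distance ranges, at matched distance from the nearest start. These densities describe the way the peaks were chosen, and no test was made of them.

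**Figure D2:**
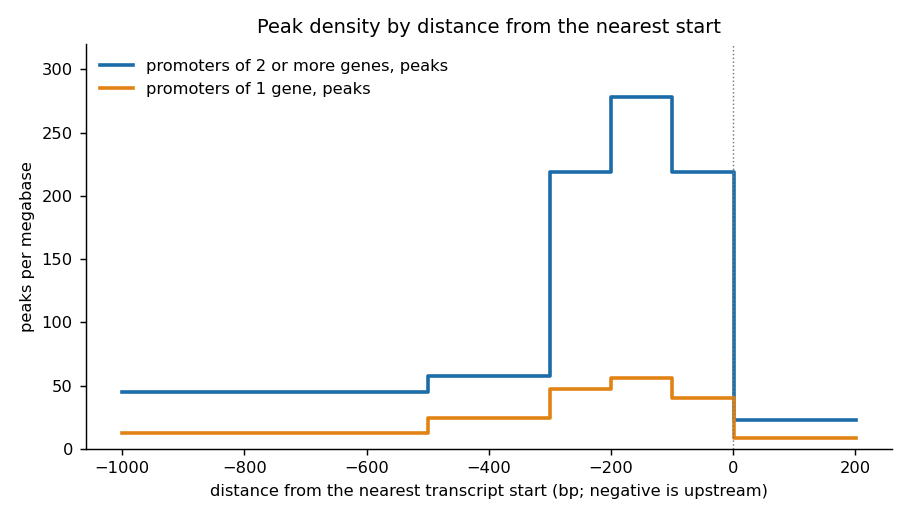
Optimal peaks per megabase of autosomal sequence (vertical axis) in 6 ranges of distance from the nearest transcript start (horizontal axis, bp, negative upstream), for positions in the promoters of 2 or more genes and of 1 gene. The shared line peaks at 278 per Mb between 200 and 101 bp upstream, where the single line stands at 55.9.

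The share was higher among strong regions than among weak ones. Of the autosomal regions ranked 1 to 100 in the pooled list, 31 of 77 (40.3%, interval 29.2 to 52.1%) lay in shared promoters. The share was 30.1% at ranks 101 to 300, 36.3% at ranks 301 to 600, 30.4% at ranks 601 to 900 and 19.1% (14.9 to 23.8%) at ranks 901 to 1290, so it did not fall steadily within the optimal set. It was 6.60% (5.72 to 7.56%) at ranks 1291 to 5000, just past the authors' threshold. Past rank 5000 it was 3.40% and, past rank 15000, 3.10%. The median signal value of the 305 peaks was 154.9, against 138.7 for single-gene promoter peaks and 114.3 for peaks outside promoters.

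**Figure D3:**
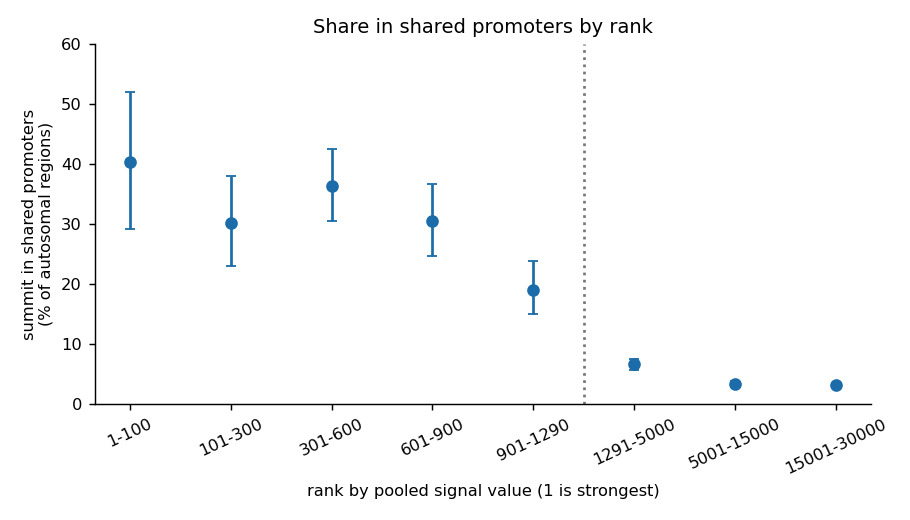
Percentage of autosomal pooled regions with a summit in a shared promoter (vertical axis, 95% Clopper-Pearson intervals) by rank of pooled signal value (horizontal axis, 1 is the strongest); the dotted line marks the end of the optimal set at rank 1290. Points lie at 19.1 to 40.3% to the left of the line and at 3.10 to 6.60% to the right.

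The replicates placed these peaks alike. In the full lists, 302 of the 305 had a partner summit in replicate 1, no more than 100 bp away, and 299 had one in replicate 2. Among the 1290 strongest regions of each replicate, the counts were 277 (90.8%) and 256 (83.9%), and 237 peaks (77.7%) were in both, where the shares were 67.2% for single-gene promoter peaks and 59.3% for peaks outside promoters. Replicate summits lay a median of 13.0 bp apart, against 17 and 21 bp. The peaks were selected by the authors from the same libraries, so these values describe the set. Across the 297 peaks with both values, the Spearman correlation of the signal values of the replicates was 0.82. It is a description across peaks that share the same libraries and were kept for high values in them.

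At the divergent peaks the 2 starts lay a median of 473.5 bp apart, against 634.5 bp in the divergent promoters that held weaker regions. At 141 of the 268 divergent peaks (52.6%) they lay within 500 bp of each other. The rule limits this spacing in both sets, since both starts must be within reach of the summit. Spacing was taken between the transcript starts nearest to each summit, so it can differ between 2 peaks of a pair. In 251 of the 268 peaks (93.7%) the summit lay between both starts. The median summit was 136 bp upstream of the nearer start, where single-gene promoter peaks had a median of 242.5 bp. The rule by itself also shortens the distance to the nearer start, since the nearer of 2 starts was taken. The second start was then a median of 328 bp away.

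Summits between both starts stood at much the same place in the space as those of weaker regions. Their median was 31.7% of the space from the nearer start, against 32.6% in weaker divergent regions. The measure is taken from the nearer start and cannot pass the midpoint, so by itself it shows no lean toward 1 gene. Of the 268 divergent peaks, 44 (16.4%) had distances to both starts that differed by 50 bp or less, and 84 (31.3%) by 100 bp or less. For 84 peaks, some of which can be the same ones, the second start was over 500 bp away. The nearer gene was the same by the pooled and both replicate summits for 280 of 297 shared-promoter peaks (94.3%, interval 91.0 to 96.6%). In the other 17 at least 1 replicate summit did not have the pooled summit's nearest gene as its own. The distance does not show which gene responds to binding, and no expression data were used.

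**Figure D4:**
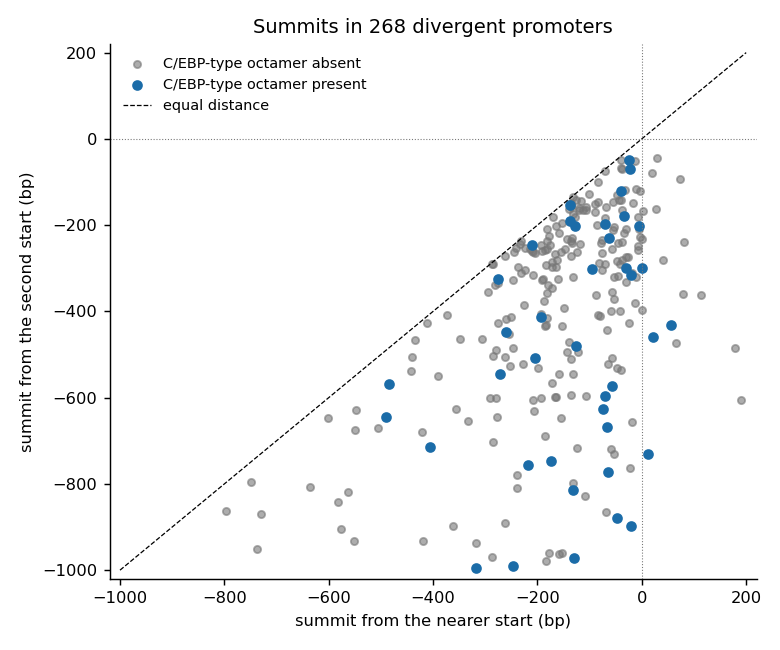
Distance of each summit from the nearer start (horizontal axis, bp, negative upstream) and from the second start (vertical axis, bp) for the 268 peaks at divergent pairs, with peaks that hold TTGCGAAA within 50 bp of the summit in blue; the dashed line is equal distance. Points crowd between 0 and 300 bp upstream of the nearer start and spread along the vertical axis.

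Some pairs had more than 1 peak. The 305 peaks fell on 293 distinct pairs, and 12 pairs had 2 peaks each. The zip-4 gene itself was among them, sharing its upstream region with nol-58, a core protein of box C/D snoRNPs. The intergenic peak at chrI:3266707-3266859 had values of 470.1 (pooled), 308.4 (replicate 1) and 149.8 (replicate 2), with the summit 12 bp upstream of a zip-4 start. The other, in an intron at chrI:3266019-3266153, had 323.6, 220.8 and 108.3 and held TTGCGAAA. The transgene also carries zip-4 sequence, so reads here can come from its copies as well as from the chromosomal gene, and these cannot be told apart. The other pairs with 2 peaks included ran-1, the Ran GTPase, with dkc-1, the pseudouridine synthase dyskerin (220.8 and 94.75 in the pooled list), atx-2, the worm ataxin-2, with ecps-1 (187.5 and 125.9), and tba-1, an alpha-tubulin, with cox-5B, a cytochrome c oxidase subunit (173.2 and 94.63). In several of the 12 pairs, those of ran-1 and tba-1 among them, the 2 intervals overlap. Separate places of binding are not shown there. The weaker ran-1 peak ranked 1351 in replicate 1 and 5203 in replicate 2. The weaker tba-1 peak had no partner summit in replicate 2.

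In all, 609 genes had a shared-promoter peak. These were 9.08% of the 6704 autosomal genes that have a shared promoter, which is the background for the counts below. The gene lists were chosen with earlier results of these data known and have no test. They were drawn up by gene symbol, so a gene of the same function under another symbol is not counted; htz-1, dlc-1, rsr-1, tbg-1 and unc-32 are genes of this kind that have a shared-promoter peak. Of the 6704, 716 (10.7%) had a peak in some part of their promoter, against 308 of 10538 genes (2.92%) that share their promoter with no other gene. These shares are not on an equal footing. A shared-promoter peak counts for every gene whose promoter holds its summit, so that 305 peaks gave 609 genes. A peak at a gene that shares no promoter counts for that gene alone. The way of counting by itself raises the first share, and the difference was not tested. In 209 of the 305 peaks no gene was on any list, and 192 of the 609 genes have only a sequence name.

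Cytosolic ribosomal protein genes led, with 28 of 61 (45.9%) under 26 peaks, of which 23 were divergent, 2 same-strand and 1 overlapping. After rpl-20 and rpl-15, the strongest was rpl-12, which faces lin-54, the DNA-binding subunit of the DREAM repressor complex, with 537.7 (pooled), 347.0 (replicate 1) and 191.3 (replicate 2). The ribosomal gene was the nearer of its pair for 14 of the 28. In rps-14 with rpl-36 (175.4) and rpl-24.1 with rps-10 (82.78) both genes of the pair encode ribosomal proteins. Mitochondrial ribosomal protein genes had 6 of 41 (14.6%), the strongest being mrps-7 with Y57G11C.3 (416.4, 251.1 and 162.5), and F29B9.11 with jmjd-1.2 and mrps-21 had 139.8, 106.0 and 36.46.

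Translation factors had 10 of 25 (40.0%), and the factor gene was the nearer of its pair for 7 of the 10. Below icd-1 came iff-2, the eIF5A gene, with F54C9.14 (373.2, 248.7 and 123.1), and eef-1A.1, elongation factor 1A, with the replication factor gene rfc-4 (299.3, 186.5 and 122.1). Aminoacyl-tRNA synthetases had 3 of 18 (16.7%): ears-2 with uncp-18 (172.3, 103.1 and 55.76), rars-1 with rpb-8 (94.32, 55.60 and 32.20), and nars-1 with nduf-6 (87.99 pooled and 41.88 in replicate 2, with no partner summit in replicate 1). The ears-2 peak had pooled rank 462, and those of rars-1 and nars-1 were of low rank, at 1010 and 1121. Chaperones and co-chaperones had 13 of 32 (40.6%), led by cct-8, hsp-60 and hsp-90, and the proteasome 5 of 27 (18.5%). The chaperone gene was the nearer of its pair for only 3 of the 13, the proteasome gene for 4 of the 5. In the peaks of cct-8, hsp-60 and hsp-90 the chaperone start was the farther one, 435, 605 and 387 bp from the summit. The strongest proteasome peak faced a chaperone: rpn-3, a regulatory particle subunit, with hsp-110 had values of 328.3, 170.4 and 146.9. Those of pbs-1, a core particle subunit, with K08D12.3 (118.4, 72.24 and 44.85) and of the ATPase subunit rpt-2 with aps-1 (106.2, 52.10 and 45.44) were weaker.

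The respiratory chain and ATP synthase list had 6 of 28 (21.4%), the strongest being atp-1, the ATP synthase alpha subunit, with mcrs-1 (328.3, 218.2 and 111.0), then mev-1, a succinate dehydrogenase subunit, with jmjd-4 (243.6, 153.0 and 82.45). A separate list of complex I genes under ndu symbols, added after the values were seen, had 6 of 20 (30.0%). None of the 6 was the nearest gene of its peak. Facing the co-chaperone dnj-29 was ndua-2 (198.3, 134.8 and 68.53). In the peak of ndua-8 (183.4, 122.9 and 60.77), rbc-2 and Y54F10AM.15 had nearer starts. In that of nduc-2 (153.0, 108.3 and 37.65), Y71H2AM.20 and cox-6B had nearer starts. The vacuolar ATPase genes with vha symbols had 2 of 9, vha-8 with C17H12.2 (184.5, 135.2 and 45.01) and vha-17 with F49C12.12 (124.2, 80.38 and 41.56). In neither peak was the vha gene the nearer one.

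Genes of transcription and RNA processing were also represented. RNA polymerase subunits had 6 of 16 (37.5%), with rpb-7 beside Y54E10BR.2 (162.1, 95.07 and 67.88) and rpac-19 beside the gamma-tubulin gene tbg-1 (104.3, 66.35 and 36.15) below rpb-11. The listed splicing and snRNP symbols had 6 of 25 (24.0%), among them the facing SR protein genes rsp-1 and rsp-2 (208.3, 118.5 and 86.37), prp-40 with clu-1 (136.9, 92.53 and 40.21), and prp-19 with K10D2.5 (133.3, 78.55 and 51.46). The listed alpha- and beta-tubulin, dynein and dynactin symbols had 4 of 9 (44.4%), on a small base: dnc-1, a dynactin subunit, with lsm-7 (355.0, 256.3 and 98.29), dnc-2 with bcl-7 (217.5, 119.6 and 89.96), and tba-1 with cox-5B (173.2, 98.85 and 66.91).

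Of the large gene families, chemoreceptors had 4 of 285 (1.40%), nuclear hormone receptors 3 of 51 (5.88%) and genes with his symbols 4 of 67 (5.97%), against the background of 9.08%. The last 2 shares are near the background and rest on few genes. Chemoreceptor genes with a peak included sri-5, which shared it with the splicing gene rsr-1 (290.9, 184.8 and 120.5), and srr-10, which shared it with clic-1 (172.8, 123.1 and 48.63). The receptor peaks were nhr-47 with the co-chaperone dnj-19 (261.8, 176.6 and 78.93), nhr-68 with H12C20.7 (133.9, 88.15 and 44.09), and nhr-142 with F44E7.9 (112.7, 60.02 and 50.39). The 4 genes with his symbols lay in 2 facing pairs, his-67 with his-68 (153.2, 102.5 and 55.75) and his-35 with his-41 (117.6, 58.42 and 61.98). Among bZIP genes, 1 of 8 had such a peak, zip-4 itself. Histone genes and some chemoreceptor genes have close copies, and the handling of reads with several matches is not known.

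**Figure D5:**
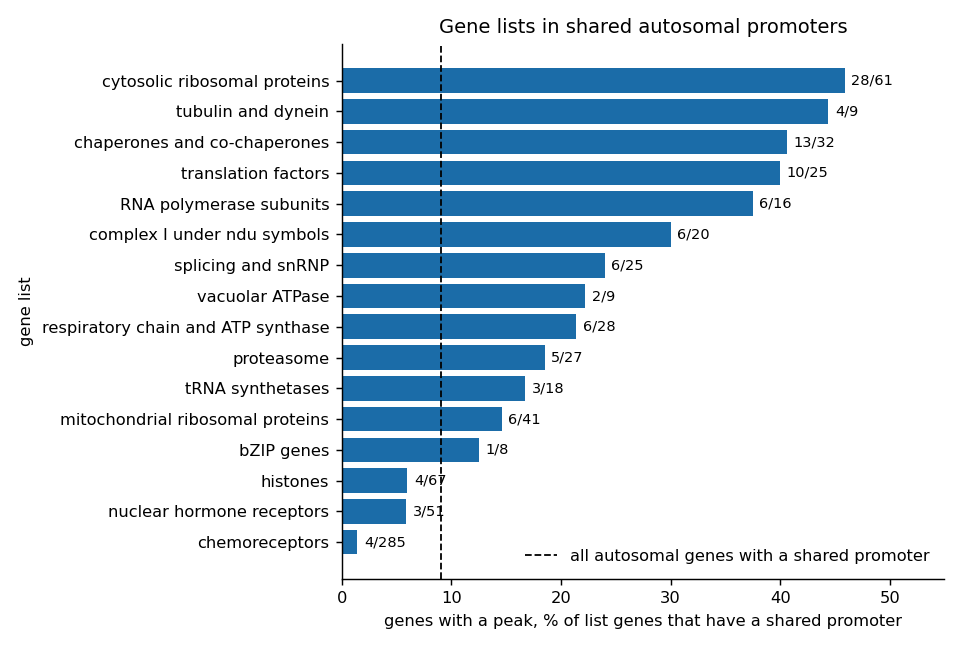
Genes with a shared-promoter peak as a percentage of the list's autosomal genes that have a shared promoter (horizontal axis), for each gene list (vertical axis), with both counts at the bar; the dashed line is the 9.08% of all such genes. Bars run from 45.9% for cytosolic ribosomal protein genes to 1.40% for chemoreceptors.

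In 15 peaks, on 14 pairs, both genes were on a list, and 13 of the 15 were divergent. Besides the pairs given above, they were rpb-3 with the proteasome gene pas-4 (84.22) and mrpl-49 with rpl-28 (80.27). Only his-67 with his-68, his-35 with his-41, rsp-1 with rsp-2, rps-14 with rpl-36 and rpl-24.1 with rps-10 paired genes of the same list. The remaining 9 pairs joined different lists, such as a proteasome gene with a chaperone gene.

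No difference in a sequence word between shared-promoter and single-gene promoter peaks passed the test over the full set. Words were searched on both strands in the 101 bp around each summit. The degenerate C/EBP-type word (TTACNNAA or TTGCNNAA) was in 78 of 305 shared-promoter peaks (25.6%) and in 129 of 454 single-gene ones (28.4%), with an odds ratio of 0.866 (95% interval 0.614 to 1.22, two-sided Fisher's exact test, Benjamini-Hochberg adjusted p = 0.5694 over 7 features). TTGCGAAA, which is also a match to that word, was in 44 (14.4%) and 82 (18.1%), with an odds ratio of 0.765 (0.500 to 1.16, Fisher's exact test, adjusted p = 0.4599). Weaker regions in shared promoters held them in 15.2% and 2.26%. Among the 645 strongest optimal peaks TTGCGAAA did pass, with an odds ratio of 0.484 (Fisher's exact test, adjusted p = 0.03555), and with 100 bp on either side of the summit the odds ratio of the degenerate word turned to 1.27 (adjusted p = 0.2674).

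By Fisher's exact test over the same 7 features, none of the other 4 words passed the threshold of 0.05. GAGAGAGA was in 7 shared-promoter peaks (2.30%) and 23 single-gene ones (5.07%, Fisher's exact test, adjusted p = 0.2063), TGACGT in 13 (4.26%) and 27 (5.95%, adjusted p = 0.5694), CACGTG in 9 (2.95%) and 16 (3.52%, adjusted p = 0.9755), and TTGCGCAA, which is also a C/EBP-type match, in 4 (1.31%) and 5 (1.10%, adjusted p = 1.000). In weaker shared-promoter regions they were in 1.51%, 5.40%, 2.38% and 0.126%.

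Within the shared-promoter peaks, TTGCGAAA was in 40 of 268 divergent peaks (14.9%) and 4 of the 37 others (10.8%), with an odds ratio of 1.45 (0.476 to 5.92, two-sided Fisher's exact test, adjusted p = 0.6238 over 2 words). The degenerate word was in 66 (24.6%) and 12 (32.4%), with an odds ratio of 0.682 (0.309 to 1.58, Fisher's exact test, adjusted p = 0.6238). In 20 of the 44 peaks with TTGCGAAA the word lay on the strand of the nearer gene and in 24 on the other, and its median distance from the summit was 17.5 bp. TTGCGAAA was in 17 of the 77 strongest peaks (22.1%, interval 13.4 to 33.0%), and in 8 of 76, 8 of 76 and 11 of 76 in the next groups down by signal value. It was in 1 of the 26 ribosomal protein peaks and in 31 of the 209 peaks with no listed gene, a difference that was not tested. The next most frequent forms of the degenerate word were TTGCAAAA in 9 peaks and TTGCCAAA and TTGCGCAA in 4 each.

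A search over all 14451 words of 8 bases found in the 305 windows, ranked by the difference in share from weaker shared-promoter regions, put TTGCGAAA first and TGCGCCAG second. This search used the same windows that it describes and has no test. TGCGCCAG was in 27 shared-promoter peaks (8.85%), 18 single-gene ones (3.96%), 1 peak outside promoters (0.345%) and 1.00% of the weaker regions, and only 2 of the 27 also held TTGCGAAA. GCGAGACC was in 8.52%, 3.08%, 0.345% and 1.76% of the same sets, and CGCTCCAC in 5.90%, 0.881%, 0.345% and 0.878%. The median GC content of the windows was 46.5% in both kinds of promoter peak and 39.6% in the weaker regions. GC content moves with these GC-rich words, and its part in their shares was not tested. In the following windows TGCGCCAG or its reverse complement is in capitals, and F57A10.2 with haf-3 has it 3 times.
ddp-1 and ttc-7, chrIII:1859687-1859787: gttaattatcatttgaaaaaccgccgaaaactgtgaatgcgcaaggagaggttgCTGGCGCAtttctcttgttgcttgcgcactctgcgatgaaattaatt
fbxb-85 and hex-3, chrIII:10848967-10849067: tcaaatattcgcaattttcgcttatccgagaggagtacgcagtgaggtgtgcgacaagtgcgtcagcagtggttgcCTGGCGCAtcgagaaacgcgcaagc
F57A10.2 and haf-3, chrV:15766347-15766447: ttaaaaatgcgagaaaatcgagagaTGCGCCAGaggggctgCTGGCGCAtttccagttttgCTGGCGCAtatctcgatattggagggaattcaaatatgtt

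The nearness of a small RNA gene was the 1 feature of the 7 that passed the test, and not under every setting. A tRNA, snRNA or snoRNA gene lay within 200 bp of the summit for 9 shared-promoter peaks (2.95%, interval 1.36 to 5.53%) and 39 single-gene ones (8.59%, 6.18 to 11.6%), with an odds ratio of 0.324 (0.136 to 0.693, two-sided Fisher's exact test, adjusted p = 0.009402). Among peaks outside protein-coding promoters the share was 23.1%. Among weaker regions it was 1.00% in shared and 0.917% in single-gene promoters. The 9 comprised 3 tRNA, 1 snRNA and 5 snoRNA genes, against 6, 13 and 20 at the 39. None of the 9 held TTGCGAAA. Shared-promoter summits lie nearer to protein-coding starts, and among peaks of either kind within 300 bp upstream of the nearest start the odds ratio was 0.286, with 4 of 252 and 13 of 243 peaks (Fisher's exact test, adjusted p = 0.1807). The call was also lost with promoters from 500 bp before to 100 bp after the start (Fisher's exact test, adjusted p = 0.06942) and among the 645 strongest peaks (adjusted p = 0.1148).

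The strongest of the 9 lay between Y75B8A.23 and tim-1, a Timeless-family gene, with 333.4 (pooled), 194.6 (replicate 1) and 142.0 (replicate 2), and its summit was 47 bp from sls-2.8, an SL2 spliced leader gene that the annotation lists as an snRNA. The peak of rps-26 and tmem-107 (213.5, 131.7 and 81.51) stood 120 bp from a snoRNA gene. For these peaks the small RNA gene is a further start that the pair classes do not count.

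The set had no gap at its edges. The weakest members were unc-32, a vacuolar ATPase subunit gene, with lin-9 (80.58), mrpl-49 with rpl-28 (80.27), and eco-1 with hmgr-1 (79.98), and the strongest regions left out by the authors' threshold were at his-72 with rpt-6 (79.68), nos-3 with Y53C12B.1 (79.47) and spe-39 with spn-4 (79.43). By position, the members nearest the promoter limit had their second start 1000 bp away (tag-281 with tag-280), 998 bp (rpb-8 with rars-1) and 996 bp (C50B6.3 with nasp-2). Just outside were ints-4 with W09C5.12, where the start at the edge was 1019 bp away, K12H4.5 with spcs-3, at 1035 bp, and ctr-9 with dars-1, where the summit was 218 bp downstream.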

How the data were processed

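The authors deposited narrowPeak lists on assembly ce11, per the files' descriptions: 30000 candidate regions for each replicate and for the pooled reads, and an optimal set of 1290 peaks kept by the irreproducible discovery rate, which compares ranks between replicates. Signal value, −log10 q-value and summit offset were used as the authors deposited them; the scale of the signal, the aligner, the caller, its settings and the depth are not stated in those sources. The optimal set equalled the 1290 pooled regions of highest signal value, the lowest being 79.97, with 1287 distinct intervals, so strength and optimal status are the same ranking. The −log10 q-value entered no result.

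Genes came from Ensembl release 115 and sequence from the RefSeq copy of WBcel235, the assembly of ce11; coordinates are 1-based. Overlap of gene bodies took precedence over strand in naming a pair. Background regions touched no optimal peak, and replicate summits were matched within 100 bp. Densities used a grid of 20 bp. Python 3.11.15, numpy 2.4.6, pandas 2.3.3 and scipy 1.17.1 were used. Shares between disjoint peak sets were compared by two-sided Fisher's exact tests, adjusted by Benjamini-Hochberg over 7 features, and over 2 within the shared-promoter peaks. Assignment, words and tests were checked on simulated data.

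Members and lists were chosen with earlier results of these data known. Genes named were the 14 strongest divergent, 6 strongest same-strand and 6 strongest overlapping peaks, the 3 strongest of each of 16 lists, all pairs with both genes listed, and the 3 peaks nearest each limit; others were chosen after their values were seen. Some of the peaks that this rule takes are given by position or not reported here. Alternatives varied the promoter, peak set, class rule and windows.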

Additional observations from a re-analysis of the deposited data

How the results depend on the processing

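Of 71 recomputed values, 57 were classed as unchanged. That class held counts within a set ratio of the main one, shares inside the main interval, and tests with the same direction and call. Of the rest, 7 counts or shares moved, 3 results lost the threshold, 3 newly passed it and 1 reversed direction. The number of shared-promoter peaks was 198 with promoters from 500 bp upstream to 100 bp downstream, 182 among the 645 strongest optimal peaks and 437 with promoters of 2000 bp, and the number of genes with such a peak was 392, 374 and 933. The narrow promoter and the 2000 bp one gave a divergent share of 92.4% and 79.6%. With 100 bp on either side of the summit, the odds ratio of the degenerate C/EBP-type word turned to 1.27 (Fisher's exact test, adjusted p = 0.2674), and 1 of the 4 rarer words passed, GAGAGAGA (odds ratio 0.351). Among the 645 strongest peaks, TTGCGAAA was less frequent in shared than in single-gene promoters (odds ratio 0.484, Fisher's exact test, adjusted p = 0.03555; range over all its alternatives 0.484 to 0.860); the cause was not tested. The small RNA difference kept its direction throughout (odds ratio 0.242 to 0.413), but missed the threshold with the narrow promoter (0.254), among the 645 strongest (0.372) and near starts (0.286), each with fewer peaks. From each replicate alone, the number of peaks was 282 to 306, and 0 to 2 of the rarer words passed, GAGAGAGA and TGACGT in replicate 1 (odds ratios 0.310 and 0.416). The number of cytosolic ribosomal protein genes stayed between 19 and 35. Alternatives for these 4 words, the gene counts, the small RNA peak sets and the near-start restriction were chosen after seeing the data. No paired analysis was possible because there was 1 group. Depth was unknown, so weak binding cannot be told from none.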
